A study of Mus musculus with 18 samples.

Results

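Epididymal fat of let-7d and let-7e mice was sequenced in 2 sets of libraries that differ in the series of their library identifiers, and these sets were compared within the let-7 groups. Of 18 samples labelled in the series and 17 in the count table, 12 are let-7 libraries: 4 carry identifiers of the series called early here (let-7d replicates 1 and 2, let-7e replicates 1 and 2) and 8 carry identifiers of the late series (replicates 3 to 6 of each). The labels give no date, and they do not say whether the identifiers follow dissection, RNA extraction, library preparation or sequencing, so these steps cannot be told apart. All 5 control libraries analysed here are of the late series and stayed out of the main comparison; their range is given beside the let-7 values.

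All 12 libraries come from epididymal white adipose tissue (eWAT) of wild-type C57BL/6 males of a generation labelled Fm. By the labels they were sired from zygotes that had received miR-let-7d or miR-let-7e by microinjection (treatments IVF_Let7d and IVF_Let7e), and the controls from zygotes given a negative control. The mice ate chow after weaning until week 6 and the diet LFD until week 15 by the growth protocol, but a separate age entry reads 24 weeks, and the 2 cannot be reconciled here. Each library was made from 1 ug of total RNA. The labels describe 6 biological replicates per group but do not say that each is a separate animal, so the p-values measure the spread between these samples.

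As background, a library of RNA fragments does not sample all transcripts alike: the share of guanine and cytosine (GC content) of a transcript and its length influence fragmentation, reverse transcription and amplification. The RNA in a tissue lysate also has a nuclear and a cytoplasmic part, and long noncoding RNAs such as Malat1, which sits in nuclear speckles beside splicing factors, mark the nuclear one. Adipose tissue adds to the RNA of its fat cells that of blood vessels, blood, immune cells and connective tissue.

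The microRNAs that name the groups differ outside their shared seed. Their mature sequences (RefSeq, GRCm38.p6) are printed with the seed, bases 2 to 8, in capitals:
let-7d-5p: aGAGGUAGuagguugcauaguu
let-7e-5p: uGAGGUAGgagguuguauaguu
Counted from the 5′ end of let-7d-5p, the substitutions are A1U, U9G and C16U. The crossing of both microRNAs with both identifier series is what allows early and late libraries to be compared with the microRNA held as a term in the fit.

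Total counts ran from 21692312 to 28972306 in the early libraries and from 12717365 to 23677964 in the late let-7 libraries, so the early libraries were the deeper ones on the whole. Levels are read counts scaled to library size with the trimmed mean of M values (TMM), written CPM; control levels were scaled over all 17 libraries. Adipoq, the fat-cell hormone adiponectin, lay between 1736 and 3689 CPM in early and between 2277 and 4562 CPM in late libraries, and Fabp4, the fat-cell fatty acid binding protein, between 8595 and 16950 and between 12110 and 19620 CPM. Defining markers of the labelled tissue were thus abundant in every library. The let-7d 1 and let-7d 5 libraries, 1 early and 1 late, stood apart by epithelial transcripts: Epcam, an epithelial adhesion molecule, reached 102.7 and 35.09 CPM there, 13.11 CPM in let-7d 3, 6.77 CPM in let-7e 1 and at most 1.881 CPM in the other 8. The main count is therefore also given without them.

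Early and late libraries differed across many genes. Of 16371 genes tested with edgeR's quasi-likelihood test, 2528 (15.4%) passed an adjusted p of 0.05: 1182 (7.22%) were higher and 1346 (8.22%) lower in early libraries. In 935 genes (5.71%) all 4 early libraries lay above all 8 late ones, and in 985 (6.02%) all lay below. Without let-7d 1 and let-7d 5 the count was 1862 (800 higher, 1062 lower), of which 1732 were among the 2528. Depth differs between the sets, so every library was also thinned to the smallest total, which gave 2305 calls.

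The let-7d and let-7e libraries share no sample, so each gives an early-to-late comparison of its own. Fitted alone with 2 early and 4 late libraries, let-7d gave 99 genes higher (0.609%) and 294 lower (1.81%), and let-7e gave 127 higher (0.789%) and 219 lower (1.36%). All 98 genes called higher in let-7d that were tested in let-7e were also above 0 there, with a median log2 fold change of 0.61, and 60 of them were called. Of the 293 tested genes called lower in let-7d, 264 (90.1%) were below 0 in let-7e and 115 (39.2%) were called. Of the genes called in let-7e, all 127 higher ones and 215 of the 219 lower ones had the same sign in let-7d. Over 15941 genes the 2 sets of fold changes had a Spearman rho of 0.52, given as a description across genes. A test of the difference between let-7d and let-7e called no gene (0%; smallest edgeR adjusted p 0.663, 495 genes at an unadjusted p under 0.05), whereas DESeq2 called 3. The smallest unadjusted p with edgeR belonged to Jade3, a histone acetylation cofactor, with a log2 fold change of 0.93 in let-7d and -0.43 in let-7e, followed by Mfsd12 (-0.94 and -0.24), Nedd9 (0.69 and -0.61), Syvn1 (-0.95 and -0.34) and Pkig (0.09 and -0.38), none past the threshold.

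Malat1 (ENSMUSG00000092341.3, GRCm38 chromosome 19, 5795690 to 5802672, minus strand, a long intergenic noncoding RNA gene) separated the sets widely. Early levels were 1559 CPM in let-7d 1, 1438 CPM in let-7d 2, 1430 CPM in let-7e 1 and 1313 CPM in let-7e 2. In the 8 late let-7 libraries its lowest, median and highest levels were 274.2, 346 and 424 CPM, and the controls ran from 261.3 to 480 CPM. All 4 early libraries lay above all late ones with no overlap, and the late let-7 libraries lay within the range of the controls. The log2 fold change was 2.08 (SE 0.109; edgeR adjusted p = 1.05e-06), a 4.22-fold difference, with 2.08 in let-7d and 2.07 in let-7e. Malat1 took 0.132% to 0.175% of all counts in early and 0.0273% to 0.0439% in late let-7 libraries.

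Other nuclear noncoding RNAs differed less or did not pass. Of 20 measured members of a list of 25, 7 were higher in early libraries and none lower, with a median log2 fold change of 0.23 against 0.02 over all genes. Over all genes 7.22% were higher and 8.22% lower. The list had a median GC content of 44.8% and a median exonic length of 9024.5 bases, against 49.3% and 4032 bases over all genes. Neat1, which builds paraspeckles and lies next to Malat1 on chromosome 19 (5824708 to 5845478), stood at 4073, 3542, 4551 and 4034 CPM in early and at 1912, 3064 and 4613 CPM (lowest, median, highest) in late libraries. These ranges overlapped, and the log2 fold change of 0.42 (SE 0.214; edgeR adjusted p = 0.214) missed the threshold. Kcnq1ot1, the antisense RNA of an imprinted cluster on chromosome 7, stood at 23.82, 21.91, 17.59 and 23.05 CPM against 8.362, 11.4 and 14.75 CPM, with no overlap. Its log2 fold change was 0.91 (SE 0.135; edgeR adjusted p = 0.000836). Mir99ahg, the host of a microRNA cluster (0.80), Snhg14, the long transcript of the Prader-Willi region (0.60), Dleu2 (0.56), Snhg11 (0.34) and Tug1 (0.31) were the other members called higher. Snhg14 lost its call without let-7d 1 (edgeR adjusted p = 0.0518), Tug1 without let-7d 1 or let-7e 2 (up to 0.096), and Snhg11 without any one of let-7d 2, 3 or 6 or let-7e 1, 2, 4 or 5 (up to 0.133). Meg3, an imprinted RNA, overlapped between the sets with a log2 fold change of 0.12 (SE 0.162; edgeR adjusted p = 0.678), as did Gas5, a host of small nucleolar RNAs, at -0.01. Among the 18 measured snoRNA host genes edgeR called 1, Taf1d (0.67), while DESeq2 called 2 and limma 3 (5 at an unadjusted edgeR p under 0.05).

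**Figure D1:**
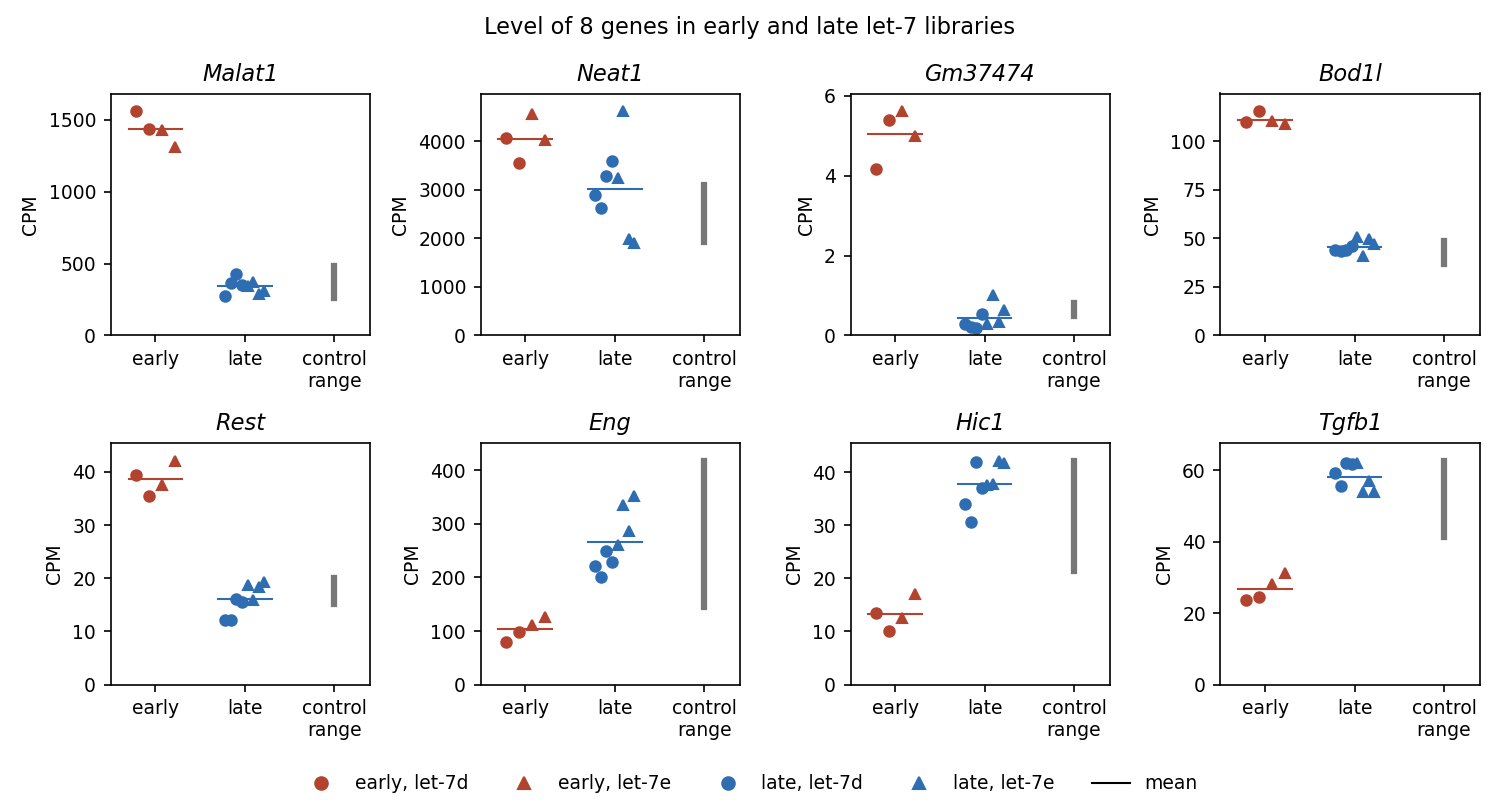
Levels in CPM (linear axes from 0) of 8 genes in the 4 early and 8 late let-7 libraries, with circles for let-7d, triangles for let-7e, a line for the mean and a grey bar from the lowest to the highest of 5 late control libraries. Malat1, Gm37474, Bod1l and Rest are higher and Eng, Hic1 and Tgfb1 lower in all early than in all late libraries, whereas Neat1 overlaps. The early levels lie outside the control range for all 8 genes.

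Long noncoding RNAs as a class took 1.22% ± 0.0757 (SD, n = 4) of counts in early and 0.935% ± 0.134 (SD, n = 8) in late let-7 libraries. The single values were 1.32, 1.14, 1.23 and 1.18% against 0.705 to 1.14%, and the controls ran from 0.751 to 0.956%. The difference of 0.282 percentage points had an exact two-sided permutation p of 0.00889 over 225 arrangements within the microRNA groups, of which the smallest possible is 0.00444, and 0.0267 after adjustment over 6 measures. Without Malat1 the difference was 0.167 (exact permutation p = 0.0578, adjusted 0.173), so the call was lost while part of the difference remained. Neat1, of the same class, had a mean of 4050 CPM in early and 3017 CPM in late libraries. The share was not computed without it. The call was also lost, with the difference still above 0, without let-7d 1 (0.239, adjusted exact p = 0.12), let-7e 1 (0.268, 0.08), let-7d 3 (0.273, 0.06) or let-7d 4 (0.274, 0.06), settings that have fewer arrangements.

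Counted by gene, the long noncoding class was not called higher more often than all genes. Of 1664 measured, 104 (6.25%) were higher in early libraries, against 7.22% of all genes. The share of long noncoding genes that were called differed with where they lie. Of 200 measured long noncoding genes inside a coding gene and on its strand, 46 (23%) were higher and 5 lower in early libraries, with a median log2 fold change of 0.46. On the opposite strand inside a coding gene, 21 of 264 (7.95%) were higher and 4 lower, and outside coding genes 37 of 1200 (3.08%) were higher and 14 lower. By annotation class, the gene models marked TEC, which await experimental support, had 52 of 315 (16.5%) higher, and sense intronic transcripts 5 of 39 (12.8%). Long intergenic RNAs with 16 of 446 (3.59%), antisense RNAs with 17 of 502 (3.39%) and pseudogenes with 19 of 456 (4.17%) lay below the 7.22% of all genes. Models with 1 exon had 59 of 500 (11.8%) higher against 45 of 1164 (3.87%) for those with more. No enrichment was tested, and the classes differ in GC content: the median GC content was 43.0% for the same-strand inner genes and 48.0% for those outside.

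**Figure D2:**
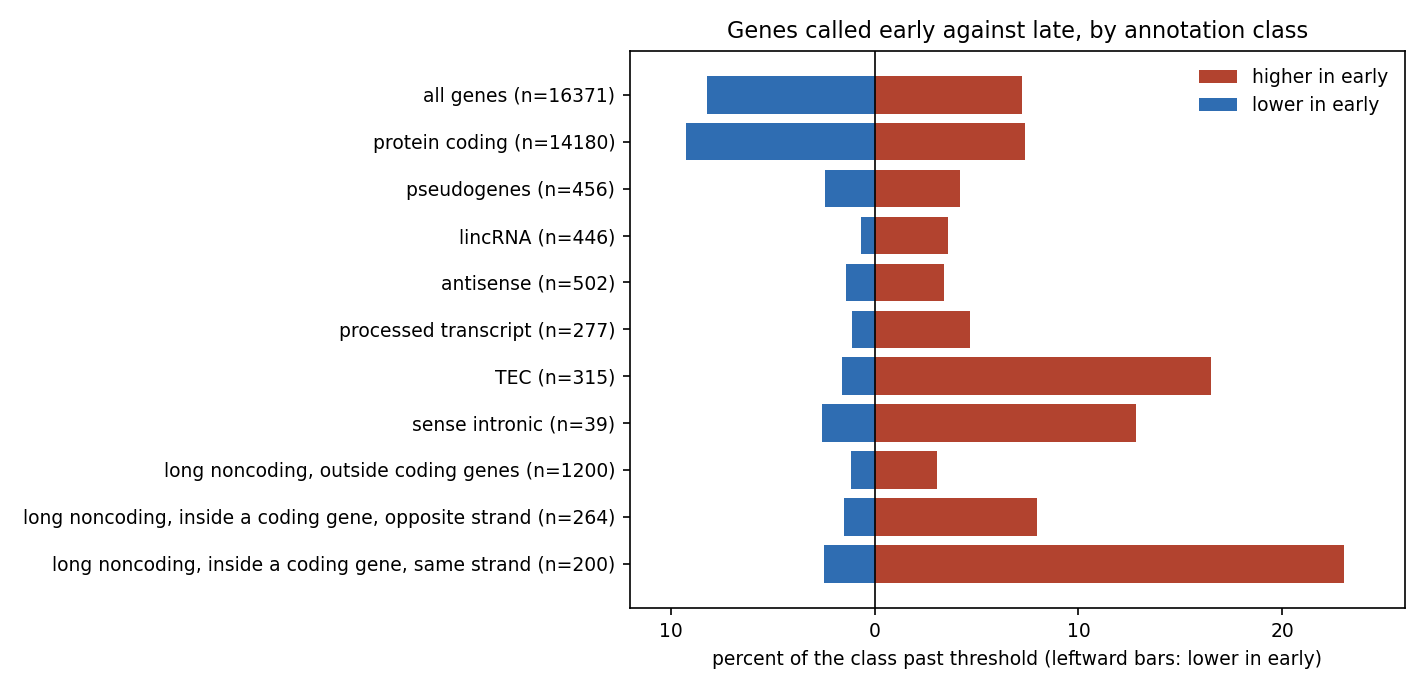
Percent of the measured genes of each annotation class past an edgeR adjusted p of 0.05, higher in early (red, rightward) or lower in early (blue, leftward), with the number measured in brackets. Long noncoding genes inside a coding gene on the same strand reach 23% higher and TEC transcripts 16.5%, against 7.22% of all genes.

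Most inner transcripts had a larger fold change than the genes that hold them. Of 185 with a measured host, 136 had a larger fold change than the host, with medians of 0.51 for the inner and 0.09 for the host genes. Of the 46 called higher, 9 had a host that was also higher, 1 a host that was lower and 36 a host that was not called. Over all genes 7.22% were higher, 8.22% were lower and 13843 of 16371 were not called. The 46 were picked by their own call, so their host counts do not test whether inner and host genes differ. Gm37474, a TEC transcript within Fli1 (chromosome 9, 32525145 to 32526958, minus strand), stood at 4.16, 5.409, 5.612 and 5.004 CPM in early and at 0.1904, 0.32 and 0.999 CPM (lowest, median, highest) in late libraries. The sets did not overlap, and the log2 fold change was 3.58 (SE 0.335; edgeR adjusted p = 3.96e-05), while Fli1, a transcription factor of blood vessels and blood cells, had 0.79 (SE 0.13). Gm42991, within Auts2 (chromosome 5, 131972050 to 131975886, minus strand), stood at 7.21, 5.363, 4.765 and 4.617 against 0.509 to 1.117 CPM. Its log2 fold change was 2.87 (SE 0.229; edgeR adjusted p = 1.8e-05) and that of Auts2 itself 0.10 (SE 0.08; adjusted p = 0.47). Gm43999 and Gm44005 both lie within Mgll (chromosome 6, plus strand), the monoacylglycerol lipase that ends triglyceride breakdown in fat cells. They were higher in early libraries by 2.88 (SE 0.254) and 1.39 (SE 0.156), whereas Mgll had -0.53 (SE 0.17; edgeR adjusted p = 0.0558), below the threshold of a call. In controls Gm37474, Gm42991 and Gm43999 lay between 0.290 and 0.917 CPM, and Gm44005 between 5.294 and 10.2 CPM. These genes were chosen after their values were seen, apart from Gm44005, and since the counting rule is not given, reads of an inner transcript and of the host's unspliced RNA cannot be told apart.

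The short and structural RNA classes hold few measured genes: 5 of 17 microRNA genes and 2 of 4 small Cajal-body RNAs were higher, and 0 of 5 snoRNAs, 0 of 2 snRNAs and 0 of 6 miscellaneous RNAs were called by edgeR or DESeq2. At an unadjusted edgeR p under 0.05 there were 1, 1 and 0 of these, and limma called 1, 1 and 0. Of the microRNA genes and the Cajal-body RNAs, DESeq2 called 2 and 1, and limma 5 and 2. Over all genes edgeR called 7.22% higher and 8.22% lower, so 0 calls in classes this small do not set them apart. Gm23935 and Gm24187, annotated as microRNA genes of 57 bases on chromosome 16 (11144125 to 11144181, plus strand) and chromosome 13 (9834469 to 9834525, minus strand), are shown because they differ by 1 base, G11A counted from the 5′ end of Gm23935, so reads of one can be counted for the other. The sequences are from GENCODE M21 (GRCm38), with the differing base in capitals:
Gm23935: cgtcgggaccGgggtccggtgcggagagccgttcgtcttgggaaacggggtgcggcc
Gm24187: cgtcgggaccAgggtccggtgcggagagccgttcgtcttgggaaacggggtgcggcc
Gm23935 stood at 61.53, 54.77, 74.33 and 56.53 CPM in early and at 11.75, 15.2 and 19.77 CPM in late let-7 libraries, with controls from 11.54 to 33.51 CPM. Gm24187 stood at 9.243, 10.77, 12.96 and 9.48 CPM against 2.233, 2.54 and 4.11 CPM. Neither overlapped between the sets. Their log2 fold changes were 1.97 (SE 0.105; edgeR adjusted p = 1.05e-06) and 1.88 (SE 0.2; adjusted p = 9.63e-05), and with a GC content of 73.7% and 71.9% they are GC-rich genes that were higher in early libraries. None of the 42 runs of 16 bases of either sequence occurs in CT010467.1, the annotated ribosomal RNA gene of the table, on either strand. No other ribosomal RNA sequence was searched, so whether these reads come from ribosomal RNA was not tested.

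CT010467.1 (chromosome 17, 39846353 to 39848827) stood at 1086, 637.7, 859.6 and 706.6 CPM in early and at 379.8, 438 and 681.5 CPM in late libraries. The sets overlapped through 1 late library, let-7e 4, and the log2 fold change was 0.81 (SE 0.164; edgeR adjusted p = 0.00578). Lars2, the mitochondrial leucyl-tRNA synthetase, was higher in early libraries by 1.05 (SE 0.076; edgeR adjusted p = 1.49e-05), at 112.4, 104.4, 130.8 and 112.8 against 49.66, 53.4 and 68.6 CPM. The annotated Cajal-body RNAs Gm22009 and Scarna2, which belong to a class that guides the modification of spliceosomal RNAs, gave 2.32 (SE 0.346) and 1.04 (SE 0.302), and the microRNA genes Mir365-2, Mir6236 and Mir99a gave 1.5, 1.98 and 1.30, all called higher and all at under 5 CPM. Scarna2 lost its call without any one of 8 libraries (edgeR adjusted p up to 0.113; let-7d 1, 2, 3 and 6 and let-7e 1, 3, 4 and 5) and Mir99a without any one of 7 (up to 0.116; let-7d 1 to 5 and let-7e 1 and 3). These values count reads assigned to the gene models and are not levels of mature microRNAs. Transcripts of the mitochondrial genome were not called: 0 of 8 messenger RNAs passed with edgeR, DESeq2 or limma (0 at an unadjusted p under 0.05), and 0 of 5 ribosomal and transfer RNAs passed with edgeR or DESeq2 and 1 with limma (1 at an unadjusted p under 0.05). The mitochondrial share of counts did not separate the sets, and it was 3.74% ± 0.365 (SD, n = 4) against 3.63% ± 0.452 (SD, n = 8; exact permutation p = 0.711). This share turned from 0.109 to -0.0292 percentage points without let-7d 2. Replication-dependent histones, whose messenger RNAs lack a poly(A) tail, took 0.0326% ± 0.00383 (SD, n = 4) against 0.0352% ± 0.00784 (SD, n = 8; exact permutation p = 0.556), and 0 of 21 were called by edgeR, DESeq2 or limma (1 at an unadjusted p under 0.05). Over all genes edgeR called 15.4% in either direction.

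Of 8 gene features, exonic GC content had the largest rank correlation with the fold change of coding genes. Over 14174 coding genes the log2 fold change had a Spearman rho of -0.54 with exonic GC content and -0.48 with the GC content of the coding part, and over 13693 genes it had -0.45 with that of the 3′ untranslated part. It had 0.29 with exonic length, 0.22 with the length of the 3′ untranslated part, 0.15 with coding length and -0.18 with the mean level. These are descriptions across genes, which share the 12 libraries and are not independent. Of 774 coding genes under 40% GC, 217 (28%) were higher and none lower in early libraries, while of 474 genes at 60% or over, 222 (46.8%) were lower and none higher. Between 45 and 50% the counts were 254 higher and 45 lower of 3686, and between 50 and 55% they were 49 and 340 of 3806. The 1047 coding genes called higher had a median GC content of 42.8% and a median exonic length of 7.88 kb, and the 1312 called lower had 56.7% and 4.10 kb, against 49.6% and 4.41 kb over all coding genes.

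Within a range of GC content the counts also differed by length. Among genes under 45% GC, 401 of 1110 (36.1%) with 8 kb or more were higher, against 332 of 2348 (14.1%) with 2 to 8 kb and 3 of 230 (1.3%) with less than 2 kb. Among genes at 55% GC or over, 760 of 2150 (35.3%) of 2 to 8 kb were lower, against 109 of 679 (16.1%) under 2 kb and 49 of 165 (29.7%) of 8 kb or more. Longer genes also gather more reads, and the part of this in the counts of calls was not tested. The median log2 fold changes, which use no threshold, were 0.03, 0.18 and 0.28 in order of length for genes under 45% GC. For genes at 55% GC or over they were -0.21, -0.32 and -0.28, which do not run in order of length.

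**Figure D3:**
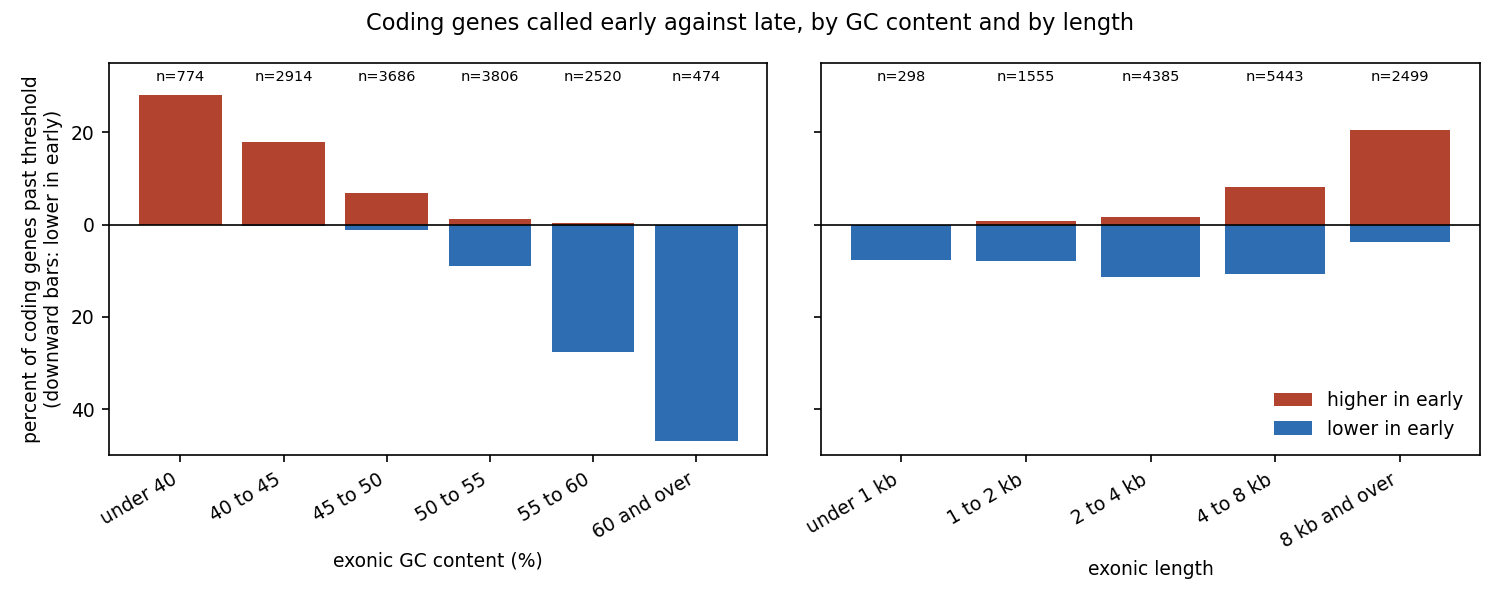
Percent of coding genes past an edgeR adjusted p of 0.05 by exonic GC content (left) and exonic length (right), higher in early (red, upward) or lower in early (blue, downward), with the number of genes along the top. Calls turn from 28% higher under 40% GC to 46.8% lower at 60% and over, and among genes of 8 kb and over 20.5% are called higher and 3.84% lower.

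In each library the slope of the coding genes' deviation from the mean of the 12 on GC content, with length in the same regression, was taken as 1 value, in log2 per 10 percentage points. It was -0.107 and -0.250 in let-7d 1 and 2 and -0.205 and -0.181 in let-7e 1 and 2. In the late let-7 libraries it ran from 0.0364 to 0.180, and in the controls from 0.0303 to 0.169. The early values were all below 0 and the late values all above. Because deviations are taken from the mean of the 12, a slope of 0 is that mean and not the absence of a GC trend. The difference of -0.278 had the smallest exact permutation p that the design allows, 0.00444 (0.0267 after adjustment over 6 measures; early -0.186 ± 0.0597, SD, n = 4, late 0.0928 ± 0.0453, SD, n = 8). Leaving out let-7d 1 (-0.314) or let-7e 1 (-0.272) gave an exact permutation p of 0.0133, the smallest of the remaining arrangements, and 0.08 after adjustment. The slope on log2 length, with GC content in the same regression, did not pass (0.0235 ± 0.0230, SD, n = 4, against -0.0118 ± 0.0501, SD, n = 8; exact permutation p = 0.2). Without GC content in the regression it differed by 0.0931 (exact permutation p = 0.00444, adjusted 0.0133).

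**Figure D4:**
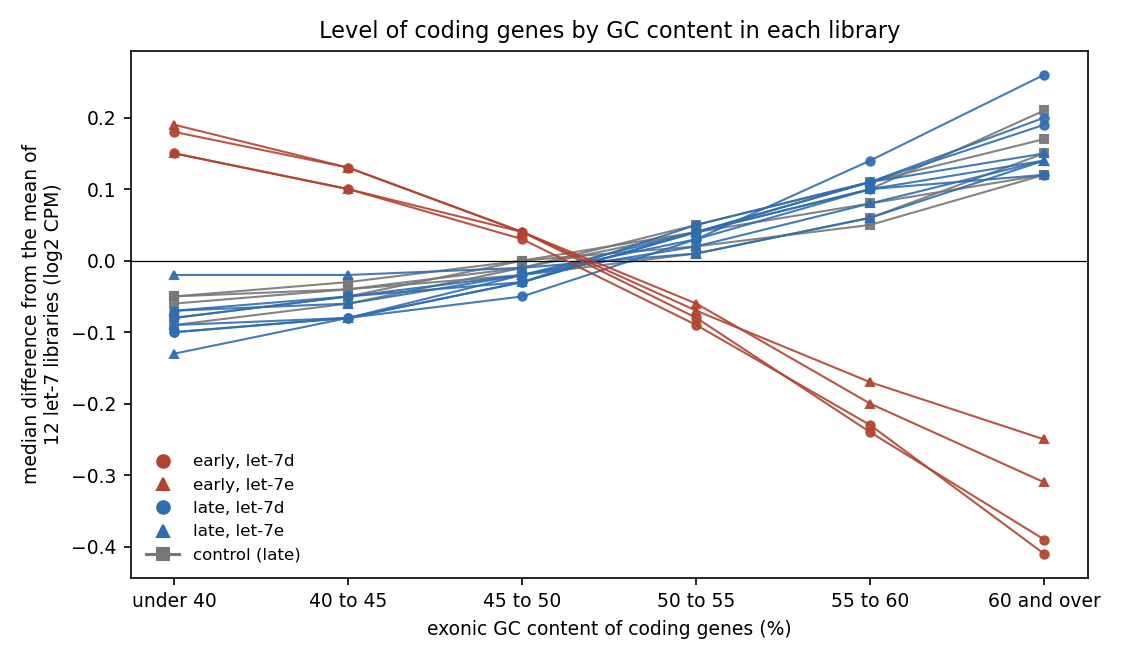
Median difference of coding genes' log2 CPM from the mean of the 12 let-7 libraries (vertical axis), in 6 bins of exonic GC content (horizontal axis), 1 line per library, with early libraries red, late let-7 libraries blue and late controls grey. The 4 early lines fall from 0.15 to 0.19 under 40% GC to between -0.41 and -0.25 at 60% and over. Relative to that mean, the 8 late let-7 lines and the 5 controls run the other way.

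A fit in which each library's smooth trend with GC content and length was taken out asks which genes differ beyond those trends. It called 434 genes (2.65%), 168 higher (1.03%) and 266 lower (1.62%), of which 405 were among the 2528. By construction rho with GC content fell near 0 (-0.04). The long noncoding genes inside a coding gene on the same strand had 24 of 200 higher and 5 lower in that fit, those on the opposite strand 7 and 3 of 264, and those outside 7 and 5 of 1200. Malat1 stayed at 1.85 (edgeR adjusted p = 1.3e-05), Gm23935 at 1.99 (1.3e-05), Gm42991 at 2.67 (7.38e-05) and Lars2 at 0.84 (0.000833). Kcnq1ot1 went to 0.40 (adjusted p = 0.139) and Mir99ahg to 0.43 (0.169), and of the 7 nuclear noncoding members only Malat1 was still called.

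Among named genes higher in early libraries, the 12 of smallest p changed by 0.78 to 2.08 on the log2 scale. Bod1l, a protein that protects stalled replication forks (chromosome 5, 41787538 to 41844315), stood at 109.9, 115.5, 110.4 and 109.1 CPM in early and at 41.08, 44.98 and 50.89 CPM (lowest, median, highest) in late libraries. The early spread was small beside the distance to the late set, and the log2 fold change was 1.28 (SE 0.063; edgeR adjusted p = 1.05e-06). Rest, the repressor of neuronal genes, stood at 39.38, 35.43, 37.59 and 42.11 CPM against 12.09, 16.02 and 19.35 CPM, with no overlap (1.28, SE 0.1; edgeR adjusted p = 1.8e-05). Zbtb20, a zinc finger repressor, stood at 459.3, 414.9, 437.2 and 415 CPM against 174.2, 190 and 214.7 CPM, again with no overlap (1.16, SE 0.076; edgeR adjusted p = 9.28e-06). Others of the 12 with the smallest p were Malat1, Zfhx3, a homeodomain zinc finger protein (1.06), Lars2 (1.05), Crebbp, a histone acetyltransferase (0.93), Tmf1, a Golgi protein (0.86), Fn3krp, which removes sugar adducts from proteins (0.85), Ankrd17 (0.78) and Thoc2, a subunit of the messenger RNA export complex THO (0.78). All 12 had 4 early libraries above all late ones, as did 5.71% of all genes. They were picked by p in these same libraries, so this is no separate support. Without the GC and length trends, all but Ankrd17 (0.36, edgeR adjusted p = 0.0566) passed. Rest gave 1.15 and Bod1l 1.03.

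Among named genes lower in early libraries, the 12 of smallest p had log2 fold changes from -1.51 to -0.74. Pigt, a subunit of the enzyme that attaches GPI anchors, stood at 42.3, 43.41, 42.76 and 49.37 CPM in early and at 78.4, 84.4 and 90.51 CPM in late libraries, with no overlap (-0.93, SE 0.066; edgeR adjusted p = 1.49e-05). Eng, the endothelial TGF-beta co-receptor endoglin, stood at 80.36, 97.59, 111.2 and 126.9 CPM against 200.1, 256 and 352.4 CPM (-1.36, SE 0.105; edgeR adjusted p = 1.8e-05). Tgfb1, a ligand of that pathway, stood at 23.69, 24.48, 28.1 and 31.15 CPM against 53.84, 58.1 and 62.22 CPM (-1.12, SE 0.085; edgeR adjusted p = 1.8e-05). For each of these the early libraries lay below all late ones, as for 6.02% of all genes. The 12 were picked by p in these same libraries. Hic1, a transcriptional repressor with a GC content of 64.5%, had the largest change of the 12, at 13.5, 10.04, 12.6 and 16.99 CPM against 30.69, 37.7 and 42.06 CPM (-1.51, SE 0.12; edgeR adjusted p = 1.8e-05). The others were Efnb1, an ephrin ligand (-1.29), Prag1 (-1.23), Rasip1, a Ras-interacting protein of endothelium (-1.21), Tie1, an endothelial receptor kinase (-1.17), Git1 (-0.95), Lmf2 (-0.89), Zmiz2 (-0.80) and Ap2a1, an adaptor of clathrin-coated pits (-0.74). All 12 passed without the GC and length trends; Hic1 gave -1.13 and Prag1, whose GC content of 52.5% is nearer the middle, -1.25.

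Of 1664 long noncoding genes, 23 (1.38%, against 8.22% of all genes) were lower in early libraries. The 6 of smallest p were Tmem250-ps (-0.66, edgeR adjusted p = 0.000872), Zbtb11os1 (-0.69, 0.00636), Gm48226 (-0.59, 0.0121), AI506816 (-0.65, 0.0192), Gm4673 (-0.50, 0.0202) and Gm12473 (-0.81, 0.0231). Only Gm48226 was still called without the GC and length trends (-0.83). Its call was lost without let-7d 2 (adjusted p = 0.0511). AI506816 lost its call without let-7d 1 or let-7e 1, Gm4673 without let-7d 2, let-7e 1 or let-7e 2, and Gm12473 without let-7d 1, let-7d 2 or let-7e 1, with adjusted p between 0.0518 and 0.0732.

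Lists of genes by cell type and function were described by counts, beside 7.22% higher and 8.22% lower over all genes. Endothelial markers had 9 of 17 (52.9%) lower and none higher, with a median log2 fold change of -0.32 against 0.02 over all genes. After Eng and Tie1 came Robo4 (-1.10) and Sox18 (-1.12). Pecam1, which has 48.6% GC, stood at 262.4 to 325 CPM in early and 265.7 to 342.4 CPM in late libraries (-0.12, SE 0.082; edgeR adjusted p = 0.386). The list's median deviation from the mean of the 12 libraries lay between -0.57 and -0.12 in early and between -0.03 and 0.35 in late let-7 libraries, and reached -0.54 in 1 control. Without the GC and length trends 6 of the 17 were lower, with a median of -0.33. In whole tissue, fewer cells of a type and less RNA per cell cannot be told apart. Smooth muscle and pericyte genes had 4 of 15 lower, led by Notch3 (-1.16), the pericyte receptor. Of these, Des lost its call without let-7d 2 or let-7e 1, and Lmod1 without any one of 8 libraries (edgeR adjusted p up to 0.128). The list's median deviation overlapped, at -0.43 to 0.06 in early and -0.22 to 0.89 in late let-7 libraries. Extracellular matrix genes had 5 of 28 lower, among them Col18a1 (-0.82), Hspg2 (-0.92), Col4a2 (-0.76) and Col1a1 (-0.92). Without the trends 1 smooth muscle and pericyte gene and 2 matrix genes were lower.

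Erythroid transcripts were lower in 7 of 10 and higher in none, with a median of -0.97. Hba-a1, an alpha globin whose near-identical copy Hba-a2 can share its reads, stood at 53.03, 79.39, 80.43 and 59.14 CPM in early and at 95.69, 150 and 194 CPM (lowest, median, highest) in late libraries. The sets did not overlap (-1.05, SE 0.215; edgeR adjusted p = 0.00636), while the controls ran from 84.19 to 263.6 CPM. Alas2, the first enzyme of heme synthesis in red-cell precursors, had -1.06 (SE 0.233), Hbb-bs, a beta globin, -0.97 (SE 0.231; not called without let-7d 1 or let-7e 2, edgeR adjusted p up to 0.0538), and Slc4a1, the band 3 anion exchanger, -2.03 (SE 0.471) at a mean of 0.454 against 1.72 CPM. With the trends taken out 5 of the 10 were still lower (median -1.03). The list's median deviation lay between -1.09 and -0.26 in early and between -0.12 and 0.79 in late let-7 libraries. The labels do not say whether blood was removed from the tissue. The lymphocyte list had 2 of 27 higher, Jchain (2.89, SE 0.704) and Iglc2 (3.43, SE 0.937), genes of antibody-secreting cells. Jchain stood at 7.302, 103.4, 13.41 and 7.471 CPM in early and at 0.354 to 12.51 CPM in late libraries. Iglc2 stood at 0.370, 24.43, 0.668 and 2.784 CPM against 0.0709 to 1.103 CPM. Both overlapped, and let-7d 2 held the highest value of each. Without let-7d 2 neither was called, at 1.98 (edgeR adjusted p = 0.148) for Jchain and 1.29 (0.285) for Iglc2, and Iglc2 also lost its call without any one of let-7d 3 to 6 or let-7e 2. Igkc, an immunoglobulin light chain, varied between 24.92 and 256.4 CPM in early and between 2.197 and 85.08 CPM in late libraries, and missed the threshold (2.08, SE 0.712; edgeR adjusted p = 0.0741).

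Immediate early genes, transcription factors switched on within minutes of a stimulus, had 8 of 27 lower and 1 higher. Jun (-0.76, SE 0.107), Jund (-0.94, SE 0.151) and Ier2 (-0.65, SE 0.117) were lower with no overlap between the sets, and Klf6 (0.63, SE 0.108) was higher. The Jund gene has 67.1% GC and Klf6 42.5%, and without the trends 3 members were lower and none higher. The stress lists gave 4 of 20 lower for the integrated and endoplasmic reticulum stress response, with Sesn2, an inhibitor of mTORC1, at -1.42 (SE 0.229), and 2 lower and 1 higher of 20 chaperones.

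Lists of RNA metabolism had calls mainly in the higher direction. Splicing factors had 7 of 30 higher and none lower, with Son, a speckle scaffold, at 0.47 (SE 0.068), Hnrnpu at 0.40, Rbm25 at 0.39 and Luc7l2 at 0.31. Luc7l2 turned to -0.02 with the trends taken out. Their median GC content was 41.2%, against 49.3% over all genes, and without the trends none of the 30 was called (median 0.02). MicroRNA processing genes had 7 of 18 higher and none lower. Tnrc6b, the scaffold by which Argonaute proteins silence their targets, was higher by 0.82 (SE 0.07; edgeR adjusted p = 2.66e-05), Dgcr8, the partner of Drosha, by 0.50, Tnrc6a by 0.46 and Tut7, which uridylates let-7 precursors, by 0.35. Without the trends 1 of the 18 was called. Known let-7 targets had 7 of 41 higher and 2 lower, with a median of 0.16. Among them were Tgfbr1, a TGF-beta receptor (0.50), Zfp280b (0.40) and Dicer1, which cuts the let-7 precursor (0.29; edgeR adjusted p = 0.055 without let-7d 2), and, lower, Sema4c (-0.47); without the trends 1 was lower and none higher. Zinc finger (Zfp) genes had 42 higher and 22 lower of 349, and 4 and 4 without the trends.

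Metabolic and some other lists had few calls. Adipocyte genes had 1 higher, the glycerol channel Aqp7 (0.51), and 2 lower, Cebpa (-0.62) and Lipe, the hormone-sensitive lipase (-0.57), of 22. None was called without the trends. The list's median deviation was -0.83 in let-7d 1 and between -0.04 and 0.16 in the other early libraries. In late let-7 libraries it lay between -0.05 and 0.28. Lipe lost its call without let-7d 1 and let-7d 5 together (-0.45, edgeR adjusted p = 0.0539). Lipogenesis had 0 higher and 1 lower (Srebf1, -0.52) of 23, cholesterol synthesis 1 (Hsd17b7, 0.70) and 1 (Srebf2, -0.54) of 24, and fatty acid oxidation 0 and 1 (Acads, -0.48) of 22. Nuclear subunits of the respiratory complexes had 0 higher and 3 lower of 77, and mitochondrial ribosomal proteins 0 and 2 of 77. Cytosolic ribosomal proteins had 0 and 3 of 80 and proteasome subunits 1 and 2 of 38. In that order 7, 14, 10 and 24 members lay above 0, against 8515 of 16371 over all genes. The medians were -0.12, -0.09, -0.09 and 0.04, against 0.02 over all genes, and -0.17, -0.12, -0.12 and -0.06 without the trends, against -0.04. The cytosolic ribosomal share of counts was 1.35% ± 0.159 (SD, n = 4) against 1.41% ± 0.163 (SD, n = 8; exact permutation p = 0.484). The clock list had 1 higher and 2 lower of 21, the glucocorticoid and fasting list 1 higher (Klf9, 0.34) of 20, the mast cell and granulocyte list 1 higher (Kit, 0.81) of 8 and the interferon list 1 lower (Bst2, -0.59) of 25. The interferon list had 24 of 25 members below 0 and a median of -0.36 (-0.46 without the trends). Its median deviation from the mean of the 12 libraries lay between -0.36 and -0.03 in early libraries. In late let-7 libraries it was 1.21 in let-7d 5 and between -0.16 and 0.34 in the rest, so the sets overlapped. Srebf1, Klf9 and Kit each lost their call without any one of 10 of the 12 libraries (edgeR adjusted p up to 0.177), and Acads without any one of 6 (let-7d 1, 2, 4 and 6 and let-7e 2 and 6). Hsd17b7 lost its call without let-7d 1, and Aqp7 and Bst2 without let-7d 2 or let-7e 2.

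Several other lists had no member called by edgeR in either direction. With 0 calls by DESeq2 and limma too, these were the macrophage (22 measured, 1 at an unadjusted p under 0.05), mesothelium (16, 0), absorptive and ciliated epithelium (13, 1), epididymis, vas deferens and testis (7, 1) and skeletal muscle lists (9, 0). Schwann cell and nerve genes (11, 3) had 1 call by each of the other tools, cell cycle genes (26, 3) had 0 by DESeq2 and 2 by limma, and the hypoxia list had 1 by each (21 gene models for 20 symbols, since Aldoa has 2; 2 at an unadjusted p under 0.05). The epithelial list varied widely between libraries: its median deviation from the mean of the 12 was 4.47 in let-7d 1, 3.83 in let-7d 5 and between -1.67 and 0.96 in the other 10, on the log2 scale. Its median log2 fold change was 1.36. Gapdh, often used as a reference, overlapped between the sets (-0.26, SE 0.162; edgeR adjusted p = 0.31), whereas Actb, beta-actin, lay at 2383 to 2753 CPM in early and 1291 to 2192 CPM in late libraries and was higher by 0.53 (SE 0.149; edgeR adjusted p = 0.0295). The Actb call was lost without any one of let-7d 2 or 4 or let-7e 1, 2 or 6 (up to 0.0825).

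**Figure D5:**
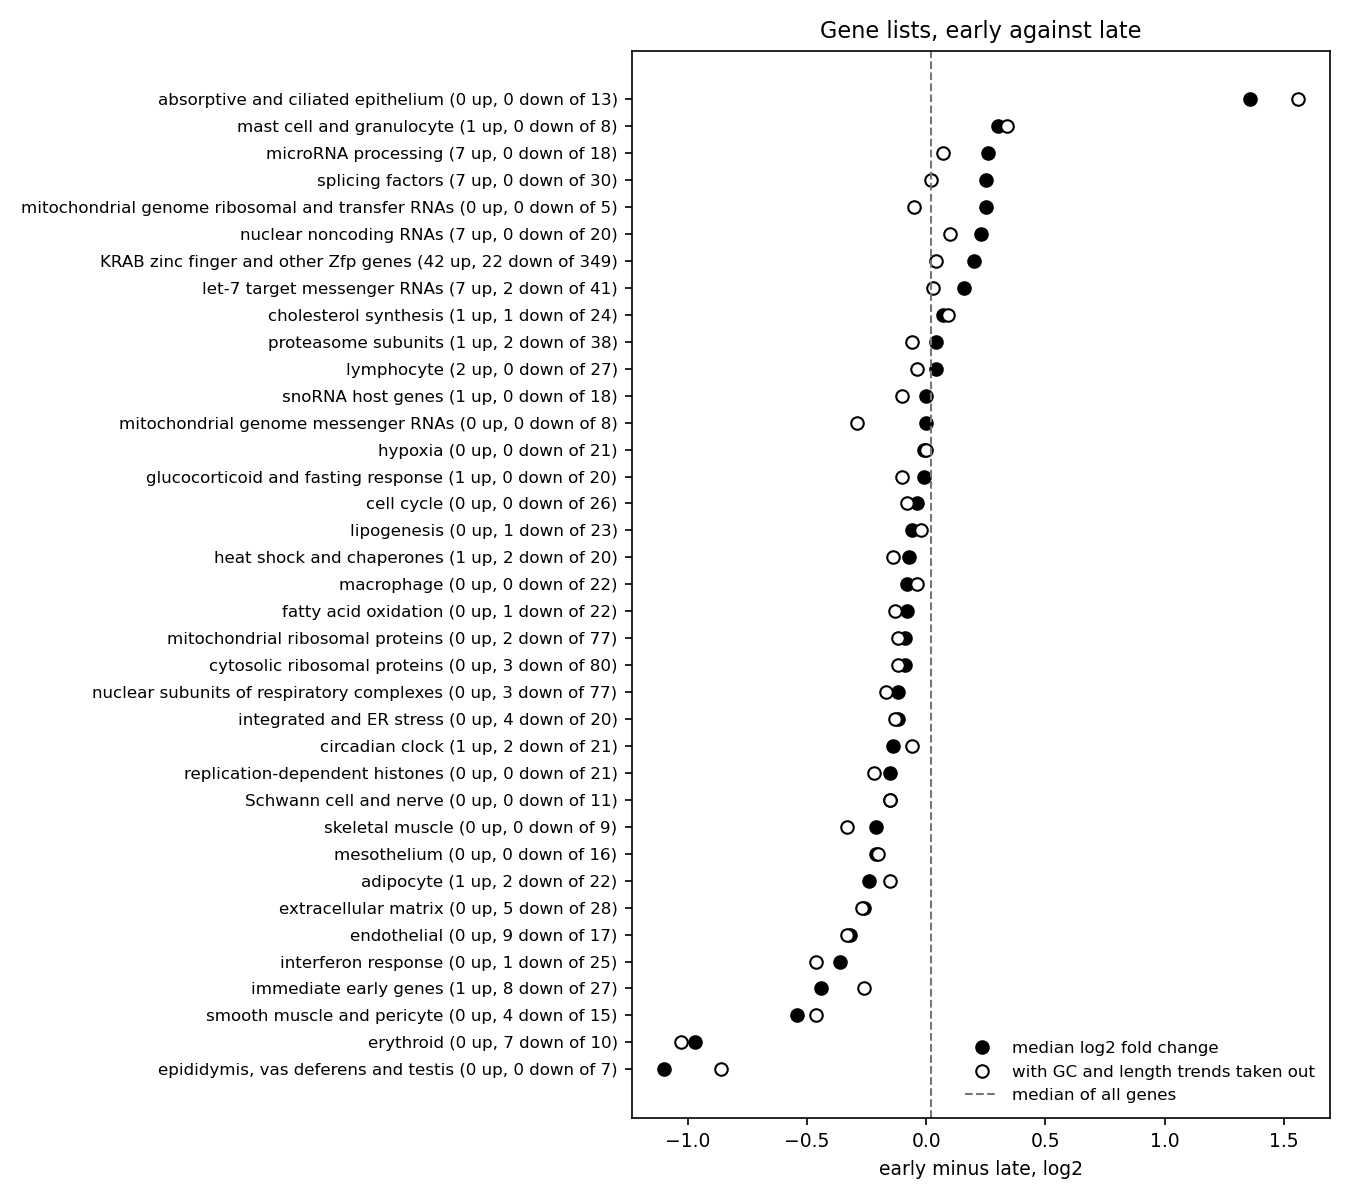
Median log2 fold change, early minus late, of each gene list with at least 5 measured members (filled circles) and the same with GC and length trends taken out (open circles), with counts of members higher and lower in brackets and the median of all genes as a dashed line. Erythroid genes stay near -1 in both, while microRNA processing and splicing factors move from 0.26 and 0.25 to 0.07 and 0.02.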

How the data were processed

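RNA of epididymal fat was measured in 18 labelled samples; the deposited table holds whole-number read counts per Ensembl gene in 17 libraries. Per the submitters' processing notes, STAR and the build GRCm38.p6 were used; the counting tool, and whether it used strand, are not given in the sources used here. The deposited genes had passed a CPM filter of the authors, at a cut-off they do not give. The table named RPKM was not used.

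Symbols, positions, exonic length and GC content came from GENCODE M21 (16438 of 16452 identifiers had a symbol, 16432 a GC content). In R 4.3.3, counts of the 12 let-7 libraries were filtered with filterByExpr (81 genes removed), TMM-scaled and tested with edgeR 4.0.16 (robust quasi-likelihood, common biological coefficient of variation 0.273) with the microRNA and the identifier series as terms; p-values are two-sided and Benjamini-Hochberg adjusted over 16371 genes, with a threshold of 0.05. DESeq2 1.42.0 and limma 3.58.1 were alternatives. Log2 CPM used a prior count of 2. Trends were taken out with offsets from natural splines of 5 degrees of freedom for GC content and log2 length. Shares and slopes were tested by exact permutation of the series within each microRNA group. Total counts of 12717365 to 28972306 set the counting precision. In simulated data with this design, 69% of 100 genes changed 2-fold and 91% of 100 changed 4-fold were recovered, with 3 false calls among 16273 genes. The changed genes were drawn from those above a minimum level. The simulated counts held no trend with GC content or length, so false calls under such trends were not tested. No pair of libraries of a group was a duplicate (smallest chi-square per degree of freedom 14.65).

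Among genes called with a mean of at least 5 CPM, the named ones are the 12 of smallest p in each direction that are no predicted gene, pseudogene or receptor segment. The 6 long noncoding genes of smallest p in each direction met the same call and level. All members of the nuclear noncoding list were taken, called or not and at any level. Of each other list, up to 4 called members of smallest p were taken, at any level. The 5 genes of smallest p in the test between let-7d and let-7e had a mean of at least 5 CPM and were not called in that test. Of the 12 higher genes, 1 is not reported here. Short RNAs, cell markers, inner transcripts with their hosts, globins, Igkc, Actb and Gapdh were chosen after their values were seen. The libraries compared and the 38 gene lists were chosen with earlier results of these data known. Alternatives were other scaling, filters, tests, sample sets and thresholds, each library left out in turn, and thinning to the smallest total, which was chosen after seeing the data.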

Additional observations from a re-analysis of the deposited data

Results flagged for a closer look

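In 256 groups of 4 libraries (4 late let-7d or 4 late let-7e libraries for 1 of 6 measures or 122 named genes), 17 had a library far from the other 3 by Dixon's criterion at the 95% level; chance flags about 1 in 20 groups. The length slope of let-7d 4 was -0.121, against -0.0208 to -0.00474 in the other late let-7d libraries. In let-7e 6 the cytosolic ribosomal protein share was 1.09%, against 1.36 to 1.41% in the other late let-7e libraries. In let-7e 6, Thoc2 stood at 41.32 CPM (other late let-7e libraries 47.55 to 48.37 CPM), Taf1d at 21.4 CPM (21.55 to 21.57 CPM), Lipe at 3092 CPM (2495 to 2550 CPM), Chac1 at 21.33 CPM (13.52 to 13.93 CPM), Ndufb4 at 13.82 CPM (15.81 to 16.14 CPM) and Gm24187 at 4.11 CPM (2.233 to 2.358 CPM). In let-7e 5, Rora stood at 50.72 CPM (39.68 to 41.02 CPM) and Syvn1 at 92.18 CPM (88.36 to 89.01 CPM). In let-7d 6, Klf6 stood at 160.5 CPM (other late let-7d libraries 106.9 to 115.9 CPM), Hsp90aa1 at 214.7 CPM (160.1 to 163.1 CPM) and Zfp280b at 10.54 CPM (12.18 to 12.43 CPM). Des stood at 66.19 CPM in let-7d 5 (36.44 to 38.68 CPM), and Gm23935 at 11.75 CPM in let-7d 3 (14.78 to 15.22 CPM). In let-7e 4, Gm44005 stood at 7.875 CPM (others 6.449 to 6.631 CPM) and Gm48226 at 12.46 CPM (others 8.06 to 8.344 CPM). Early groups hold 2 libraries of each microRNA and were not examined in this way.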

How the results depend on the processing

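No paired analysis was possible because replicate numbers 1 and 2 are all early and 3 to 6 all late, so a replicate block holds the identifier series itself. The count of 2528 genes stayed within 1.5 times under DESeq2 size factors (2519), a mean of at least 5 CPM (2716), no filter (2522), limma-voom with quality weights (3400), DESeq2's Wald test (3298), no microRNA term (2529), all 17 libraries (2009), thinning (2305) and a threshold of 0.1 (3553), and ranged from 1787 to 2437 with a library left out. It was 393 in let-7d libraries alone, 346 in let-7e libraries alone (each with fewer samples) and 434 with the GC and length trends taken out. The difference between let-7d and let-7e gave 0 genes in every other setting run for it and 3 with the DESeq2 Wald test. Without let-7d 1 and let-7d 5 the difference in lncRNA share was 0.249 and the GC slope difference -0.3, both at an adjusted exact p of 0.05, which misses the threshold; with a library left out they ranged from 0.239 to 0.325 and from -0.314 to -0.243. The difference in lncRNA share without Malat1 was 0.167. The length slope difference without GC content was 0.0931 and passed. The mitochondrial share ranged from -0.0292 to 0.247 with a library left out. Of 122 called genes chosen to be named, Luc7l2 changed direction with the trends taken out (-0.02) and 67 more lost their call there. In let-7d libraries alone 78 lost it, in let-7e libraries alone 76, without let-7d 1 and let-7d 5 18, with all 17 libraries 15, after thinning 7, without the microRNA term 4, and with DESeq2 size factors or limma-voom 3 each. With 1 library left out between 6 and 27 lost it, most without let-7d 2, and 34 genes lost it in at least 1 such setting. The cause of these losses was not tested. Genes under 5 CPM rest on few reads in the shallower late libraries. The identifier series cannot be told apart from whatever else differs between replicates 1 to 2 and 3 to 6.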
